A study of Mus musculus with 4 samples.

Results

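The genes described here encode 10 proteins of the Z-disc, Actn2, Ldb3, Tcap, Csrp3, Myoz2, Nebl, Nexn, Pdlim5, Myot and Synpo2l, out of 20701 gene symbols in the table. They were chosen by name, and for each gene the transcript with the highest mean of RPKM times length was used (RPKM, reads divided by transcript length in kilobases and by the library's counted reads). The RNA came from cardiac progenitor cells (CPCs) differentiated for 5 days from mouse E14 embryonic stem cells (ESCs) with a transgene that puts EmGFP under the control of Nkx2-5. There were 2 libraries from Baf60c KD cells and 2 from control cells. KD stands for knockdown by short hairpin RNA of Baf60c, a SWI/SNF chromatin remodelling subunit encoded by Smarcd3. Per the study's methods, control ESCs carried the pLKO vector. All 4 libraries come from cells sorted for GFP from the Nkx2-5 reporter, and the purity of the sort was not measured here. The protocol speaks of pools of ESCs and not of clones, and whether each library came from a pool of its own is not clear from it. P-values are therefore only as general as the spread among these 4 libraries, part of which may be technical. Comparing both groups shows which transcripts differ when Baf60c is lowered.

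Z-discs are the borders between neighbouring sarcomeres, the contractile units of heart and skeletal muscle. There, alpha-actinin cross-links the actin filaments of both sarcomeres, titin is anchored by its end, and a layer of PDZ, LIM and actin-binding proteins ties the lattice to desmin filaments and to signalling enzymes such as calcineurin. In forming heart muscle, alpha-actinin is first seen in small bodies along the early myofibrils, which later align into Z-discs.

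The knockdown was visible in its target. Smarcd3 was at 46.4 and 46.3 RPKM in Baf60c KD CPCs, against 174 and 167 RPKM in control CPCs, 3.67-fold lower (log2 fold change −1.85, SE 0.030, limma, Benjamini-Hochberg adjusted p = 2.9e-10). Chpf2 and Mir671, on the opposite strand, overlap 54.3% of its exon bases, and the counting did not use strand. Nkx2-5, whose reporter was sorted, was at 19.6 and 17.0 RPKM in Baf60c KD, against 25.6 and 25.4 RPKM in control (log2 fold change −0.46). The libraries held 22064092 to 30398452 counted reads summed over transcripts. Skeletal muscle markers were nearly absent, with a sum of 0.0700 and 0.0780 RPKM over 6 markers in Baf60c KD and 0.276 and 0.224 RPKM in control, and Myod1, Myf5 and Myf6 at 0 in all 4 libraries. Among 8 markers of cardiac progenitors and cardiomyocytes 6 were lower and 2 higher. Their sum was 845 and 866 RPKM in Baf60c KD, against 1496 and 1516 RPKM in control. Most of this sum came from the sarcomere genes Tnnt2 and Myh6. Tnnt2 was at 438 and 461 RPKM in Baf60c KD, against 809 and 819 RPKM in control. Myh6 was at 95.8 and 95.3 RPKM in Baf60c KD, against 436 and 445 RPKM in control. The lower markers were Myh6 (log2 fold change −2.19), Tnnt2 (−0.86), Tbx5 (−0.48), Nkx2-5 (−0.46), Isl1 (−0.13) and Mef2c (−0.13). The higher ones were Hand2 (1.27) and Gata4 (0.39). Some marker lists of other cell types had higher sums in Baf60c KD. For 6 epicardial markers (4 tested, all higher) the sum was 20.3 and 18.8 RPKM in Baf60c KD and 3.82 and 4.68 RPKM in control. For 6 fibroblast and matrix markers (4 tested, all higher) it was 33.9 and 33.6 RPKM in Baf60c KD and 12.7 and 13.3 RPKM in control. It was 28.7 and 29.4 RPKM in Baf60c KD and 12.8 and 11.7 RPKM in control for 6 endothelial markers (3 higher, 2 lower). Tek, at 15.5 and 15.6 RPKM in Baf60c KD against 2.13 and 1.86 RPKM in control, Kdr and Pecam1 were higher, and Cdh5 and Tie1 lower. For 6 blood markers (3 higher, none lower, Ptprc at 0 throughout) it was 20.9 and 21.9 RPKM in Baf60c KD and 5.98 and 6.37 RPKM in control. The smooth muscle list was lower in sum, at 819.7 and 814 RPKM in Baf60c KD against 1165 and 1161 RPKM in control (1 higher, 4 lower of 6). The remaining lists were low. For 6 pluripotency markers (1 tested, higher) the sum was 2.89 and 3.47 RPKM in Baf60c KD and 0.992 and 0.666 RPKM in control. It was 3.85 and 4.11 RPKM in Baf60c KD and 5.89 and 6.38 RPKM in control for 6 neural markers (2 tested, both lower), and 3.18 and 3.78 RPKM in Baf60c KD and 3.34 and 3.24 RPKM in control for 6 endoderm markers (1 tested, lower). Beside these counts, 36.1% of all genes tested were higher and 18.2% lower. The part of these markers in the results below was not tested.

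All of the 10 genes that could be tested were lower in Baf60c KD CPCs. Of the 10 genes 8 passed the filter on low values, which asks for 0.5 RPKM or more on average, and all 8 were lower, with changes of −0.43 to −1.49 and a median of −0.77 on the log2(RPKM + 1) scale (limma, called at a Benjamini-Hochberg adjusted p under 0.05 over all genes). Of all 11370 genes tested, 18.2% were lower and 36.1% were higher, and the median change was 0.07. Of the 8 genes 5, Actn2, Nebl, Tcap, Pdlim5 and Ldb3, were called lower by more than 0.58 on that scale, which 3.56% of all genes tested were. The summed level of the 10 transcripts was 254 and 252 RPKM in Baf60c KD CPCs, against 443.9 and 449.7 RPKM in control CPCs, 1.77-fold lower. Below, it is also said for each gene whether the groups overlapped, which was not counted over all genes. Groups without overlap were also seen in genes that were not called, such as Actn1 and Ankrd23, so this adds little to a call. In such bulk libraries, fewer cells that express a gene and less RNA per cell cannot be told apart.

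**Figure D1:**
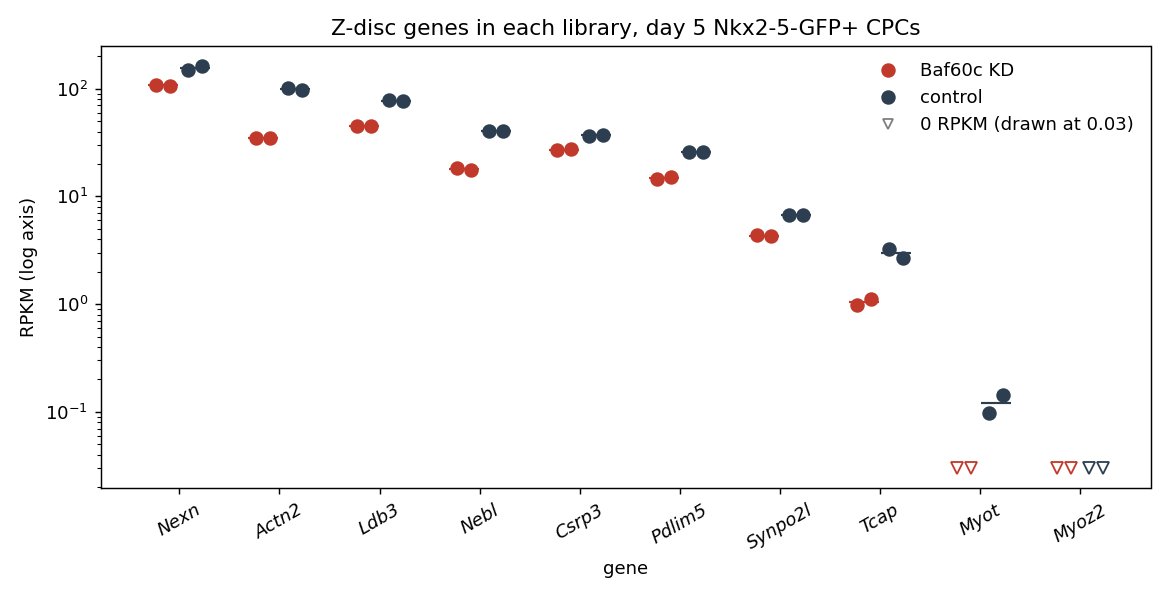
RPKM (log axis) of the 10 Z-disc genes in each library, with 2 Baf60c KD libraries in red on the left and 2 control libraries in dark blue on the right of each gene. Horizontal lines are group means and open triangles at the foot stand for 0 RPKM. For 8 genes both Baf60c KD points lie below both control points and well above the foot of the plot, while Myot has reads only in control and Myoz2 has none.

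The genes spanned a wide range of levels in these progenitors. In control CPCs the order from the highest level was Nexn, Actn2, Ldb3, Nebl, Csrp3, Pdlim5, Synpo2l, Tcap, Myot and Myoz2, and no 2 neighbours in this order overlapped over the 2 libraries. Nexn stood above 99.1% of all genes tested there and Tcap above 23.8%. In Baf60c KD CPCs the order differed at 2 places, with Ldb3 above Actn2 and Csrp3 above Nebl. The make-up of the summed level differed accordingly. Actn2 held 13.7% and 13.8% of it in Baf60c KD, against 23.0% and 21.7% in control. Nexn held 42.8% and 42.4% in Baf60c KD, against 33.8% and 36.1% in control. Ldb3 held 17.8% and 17.9% in Baf60c KD, against 17.7% and 17.0% in control.

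**Figure D2:**
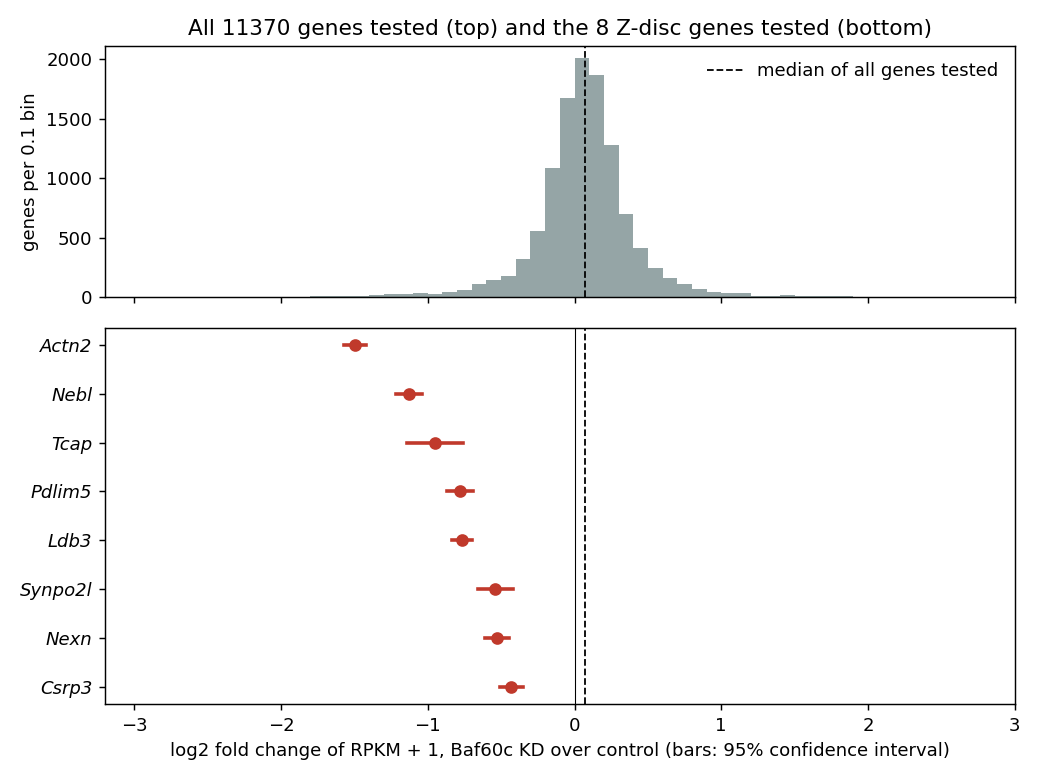
Top, histogram of the log2 fold change (RPKM + 1, Baf60c KD over control) of all 11370 genes tested, in bins of 0.1, with the median of 0.07 as a dashed line. Bottom, the same quantity for the 8 Z-disc genes tested, as points with 95% confidence intervals. All 8 intervals lie left of 0 and of the median, Actn2 farthest at −1.49 and Csrp3 nearest at −0.43.

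Promoter sequence of the 10 genes was looked at as a description. RefSeq (GRCm38.p6) gave 14 promoter windows for 7 of the genes, Actn2, Csrp3, Ldb3, Myoz2, Nebl, Pdlim5 and Synpo2l, and the 250 bases before each start had 1 exact match each in mm9. Nexn, Tcap and Myot were not among them. Motifs were searched on both strands as plain letters. The CArG box, the element bound by serum response factor, was found before Ldb3, where a pair of overlapping windows holds the same site, and in 1 window of Nebl, and in 1.47% of all 32851 windows. The MEF2 motif (CTA and TAG with any 4 bases between) was found before Ldb3, Myoz2 and Synpo2l, and in 3.20% of all windows. The match before Ldb3 lay in only 1 of its windows, inside exon bases of an annotated transcript. Among the shorter motifs, TATAAA was found before Pdlim5 (12.4% of all windows), the GATA motif AGATAA (9.99%) and the M-CAT motif CATTCC (12.6%) before Nebl, the T-box motif AGGTGT before Csrp3 and Nebl (11.8%) and AAGTG, the core of the Nkx2-5 element, before Csrp3, Myoz2, Nebl and Synpo2l (40.7%). These shares are of windows, and a gene with several windows has more chances of a match. Over all 27025 genes the shares were 1.62% for the CArG box, 3.7% for MEF2, 14.3% for TATAAA and 11.4% for AGATAA. They were 14.4% for CATTCC, 13.6% for AGGTGT and 44.3% for AAGTG. None of the 7 motifs was found before Actn2. The stretches printed here run up to the first annotated exon base. They show the promoter of the tested gene with the largest decrease and 3 that hold a CArG box or MEF2 match. They are 5′ to 3′ on the minus strand of mm9, Actn2 from chr13:12433028-12433249, Ldb3 from chr14:35401868-35402117, Synpo2l from chr14:21487577-21487826 and Myoz2 from chr3:122737909-122738155, and capitals mark the CArG box in Ldb3 and the MEF2 motif in Synpo2l and Myoz2.
Actn2: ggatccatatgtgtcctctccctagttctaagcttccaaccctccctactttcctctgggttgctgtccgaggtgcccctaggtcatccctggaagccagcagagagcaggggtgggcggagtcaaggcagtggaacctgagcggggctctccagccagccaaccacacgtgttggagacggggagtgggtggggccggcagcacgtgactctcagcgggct
Ldb3: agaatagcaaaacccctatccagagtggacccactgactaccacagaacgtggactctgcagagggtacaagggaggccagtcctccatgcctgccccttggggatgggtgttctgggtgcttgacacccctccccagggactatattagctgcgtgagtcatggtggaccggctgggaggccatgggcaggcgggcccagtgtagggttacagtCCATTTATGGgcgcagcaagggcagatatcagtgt
Synpo2l: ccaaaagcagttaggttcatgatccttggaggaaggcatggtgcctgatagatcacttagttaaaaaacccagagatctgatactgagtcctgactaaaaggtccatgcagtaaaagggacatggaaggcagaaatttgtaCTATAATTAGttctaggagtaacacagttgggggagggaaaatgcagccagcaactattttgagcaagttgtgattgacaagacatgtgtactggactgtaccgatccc
Myoz2: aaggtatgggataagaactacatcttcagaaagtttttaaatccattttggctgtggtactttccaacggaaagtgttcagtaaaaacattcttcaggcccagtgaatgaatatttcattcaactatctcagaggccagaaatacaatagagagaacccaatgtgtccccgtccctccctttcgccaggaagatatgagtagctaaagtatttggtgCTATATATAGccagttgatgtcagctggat
The CArG box of Ldb3 ran from 35 to 26 bases before the start, the MEF2 match of Synpo2l from 109 to 100 and that of Myoz2 from 33 to 24. Matches are letters only, and binding was not measured. Myoz2 had a MEF2 match and no reads, and Actn2 had no match and was the member that fell most. Whether the motifs have a part in the changes was not tested.

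Actn2 encodes the sarcomeric alpha-actinin that cross-links actin filaments in the Z-disc. It had the largest decrease of the 8 genes tested on the log2(RPKM + 1) scale. The gene (NM_033268) lies on chromosome 13 from 12361693 to 12433027 in mm9, on the minus strand. It was at 34.7 and 34.8 RPKM in Baf60c KD CPCs, against 102 and 97.5 RPKM in control CPCs. Both Baf60c KD libraries lay far below both control libraries, with an SD of 0.0426 RPKM in Baf60c KD and 3.31 RPKM in control (n = 2 each). The level was 2.87-fold lower, with a log2 fold change of −1.49 (SE 0.033, 95% confidence interval −1.57 to −1.42, limma adjusted p = 2.1e-09). Of all genes tested, 0.317% had a lower log2 fold change.

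Nexn and Nebl, which bind actin filaments at the Z-disc, were both lower but to different extents. Nexn (nexilin, NM_199465, chromosome 3 from 151899950 to 151929284) had the highest level of the 10 genes, with 109 and 107 RPKM in Baf60c KD, against 150.2 and 162 RPKM in control. The groups did not overlap, the control libraries differed by more than the Baf60c KD libraries, and the level was 1.45-fold lower (log2 fold change −0.53, SE 0.036, limma adjusted p = 2.2e-06). Nebl encodes nebulette, the small cardiac relative of nebulin (NM_028757, chromosome 2 from 17265536 to 17653091). The only transcript in the table had 2971 bases, against 13995 exon bases annotated for the gene. Which forms of the protein it stands for was not examined. Nebl had 18.5 and 17.5 RPKM in Baf60c KD, against 40.3 and 40.8 RPKM in control. Nebl was 2.25-fold lower (log2 fold change −1.13, SE 0.039, limma adjusted p = 2.7e-08), and its 95% confidence interval of −1.22 to −1.04 did not overlap that of Nexn, −0.61 to −0.45.

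Ldb3 and Pdlim5 encode PDZ-LIM proteins that bind alpha-actinin through their PDZ domain, known as Cypher or ZASP and as ENH, and both were lower by nearly the same factor. Ldb3 (NM_011918, chromosome 14 from 35339885 to 35401867) had 45.2 and 45.2 RPKM in Baf60c KD, against 78.4 and 76.6 RPKM in control, 1.72-fold lower (log2 fold change −0.77, SE 0.031, limma adjusted p = 6.0e-08). Pdlim5 (NM_001190852, chromosome 3 from 141903568 to 142058630) had 14.4 and 15.1 RPKM in Baf60c KD, against 26.0 and 26.0 RPKM in control, 1.76-fold lower (log2 fold change −0.78, SE 0.040, limma adjusted p = 3.1e-07). In neither gene did the groups overlap.

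Both genes have long and short transcripts, and some short proteins of this family are known to lack LIM domains. The table held 7 transcripts of Ldb3 and 9 of Pdlim5. The 5 long transcripts of Ldb3 (4720 to 5024 bases) were at 42.7 to 45.8 RPKM in Baf60c KD and at 72.4 to 79.7 RPKM in control, and the 2 short ones (1493 and 1612 bases) at 16.9 to 25.8 RPKM in Baf60c KD and at 29.5 to 43.7 RPKM in control. Long and short transcripts were lower by the same factor, 1.71 to 1.72-fold. The 5 long transcripts of Pdlim5 (4682 to 5075 bases) were at 14.4 to 16.2 RPKM in Baf60c KD and at 26.0 to 27.7 RPKM in control, 1.74 to 1.76-fold lower. Its 4 short transcripts (1985 to 2405 bases) were at 3.06 to 3.70 RPKM in Baf60c KD and at 6.01 to 7.72 RPKM in control, 1.95 to 2.09-fold lower. Transcripts of a gene share exons and therefore reads, so these values are not independent and the difference between the long and the short form of Pdlim5 was not tested.

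Tcap and Csrp3 encode small proteins at the site where titin is anchored. Tcap (telethonin, NM_011540, chromosome 11 from 98245125 to 98246267, plus strand) caps the end of titin in the Z-disc. It was a low gene at this stage, with 0.979 and 1.12 RPKM in Baf60c KD, against 3.24 and 2.69 RPKM in control. These values rest on 21 and 32 reads in Baf60c KD and 71 and 56 reads in control. The groups did not overlap, and the level was 2.83-fold lower. From the summed reads the ratio was 2.81 with an exact 95% interval of 2.02 to 3.95, which covers counting error only. The log2 fold change of Tcap was −0.95 (SE 0.086, limma adjusted p = 1.5e-05) with a pseudocount of 1 RPKM and −1.41 with a pseudocount of 0.1 RPKM. Csrp3, the muscle LIM protein (NM_013808, chromosome 7 from 56085768 to 56103400), had 26.9 and 27.3 RPKM in Baf60c KD, against 36.6 and 37.1 RPKM in control. It had the smallest decrease of the 8 genes tested, 1.36-fold (log2 fold change −0.43, SE 0.035, limma adjusted p = 6.2e-06), and its groups did not overlap.

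Synpo2l encodes a PDZ protein of the synaptopodin family, known as CHAP, that binds alpha-actinin. The transcript used (NM_001310432, chromosome 14 from 21478168 to 21487576) had 4.34 and 4.30 RPKM in Baf60c KD, against 6.77 and 6.70 RPKM in control, 1.56-fold lower (log2 fold change −0.54, SE 0.054, limma adjusted p = 2.8e-05). The groups did not overlap, and the other 2 transcripts of the gene in the table were also 1.56-fold lower.

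Myoz2 and Myot, which encode a calsarcin that tethers calcineurin to alpha-actinin and the actin-bundling protein myotilin, were at or near 0 and were not tested. Myoz2 (NM_021503, chromosome 3 from 122709124 to 122737908) had no read in any library, where 3 reads, the limit that a count of 0 allows, would be 0.115 and 0.0862 RPKM in Baf60c KD and 0.113 and 0.119 RPKM in control. A difference was therefore not detectable at this depth. Myot (NM_001033621, chromosome 18 from 44493728 to 44515378, plus strand) had 0 and 0 reads in Baf60c KD, against 5 and 7 reads in control, or 0.0980 and 0.145 RPKM. From the summed reads, 0 in Baf60c KD against 12 in control, Myot was at least 3.26-fold lower, the lower end of the exact 95% interval of the ratio, which covers counting error only. Set against a floor of 3 reads over both Baf60c KD libraries, and with no allowance for counting error in control, the ratio was 4.69. Without the filter on low values Myot was called lower (limma adjusted p = 0.0073).

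None of the 10 genes shares exon bases with another gene in the GENCODE annotation of mm9, so reads of a neighbour on either strand do not enter their values there. In all 14 versions of the fit in which they could be tested, the alternatives included, 7 of the 8 genes were called lower, as was Tcap in its 13, since it had too few reads for a minimum of 50 mean reads.

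Relatives and binding partners of these proteins, Z-disc proteins such as Pdlim3 and titin among them, moved in both directions. A wider list of 40 genes from the same families and of their binding partners had 33 genes above the filter, of which 14 were higher and 13 lower. Of all genes tested, 36.1% were higher and 18.2% lower, and the family counts below are to be read beside these shares. The median change of the 33 genes was 0.03 on the log2 scale. Across all genes the split between higher and lower calls depended on the scaling of the libraries, with 4103 higher and 2072 lower (66.4% higher), but 2913 higher and 2901 lower (50.1% higher) with median-ratio factors, which lower all changes by nearly the same amount. The 8 Z-disc genes were lower under both scalings.

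**Figure D3:**
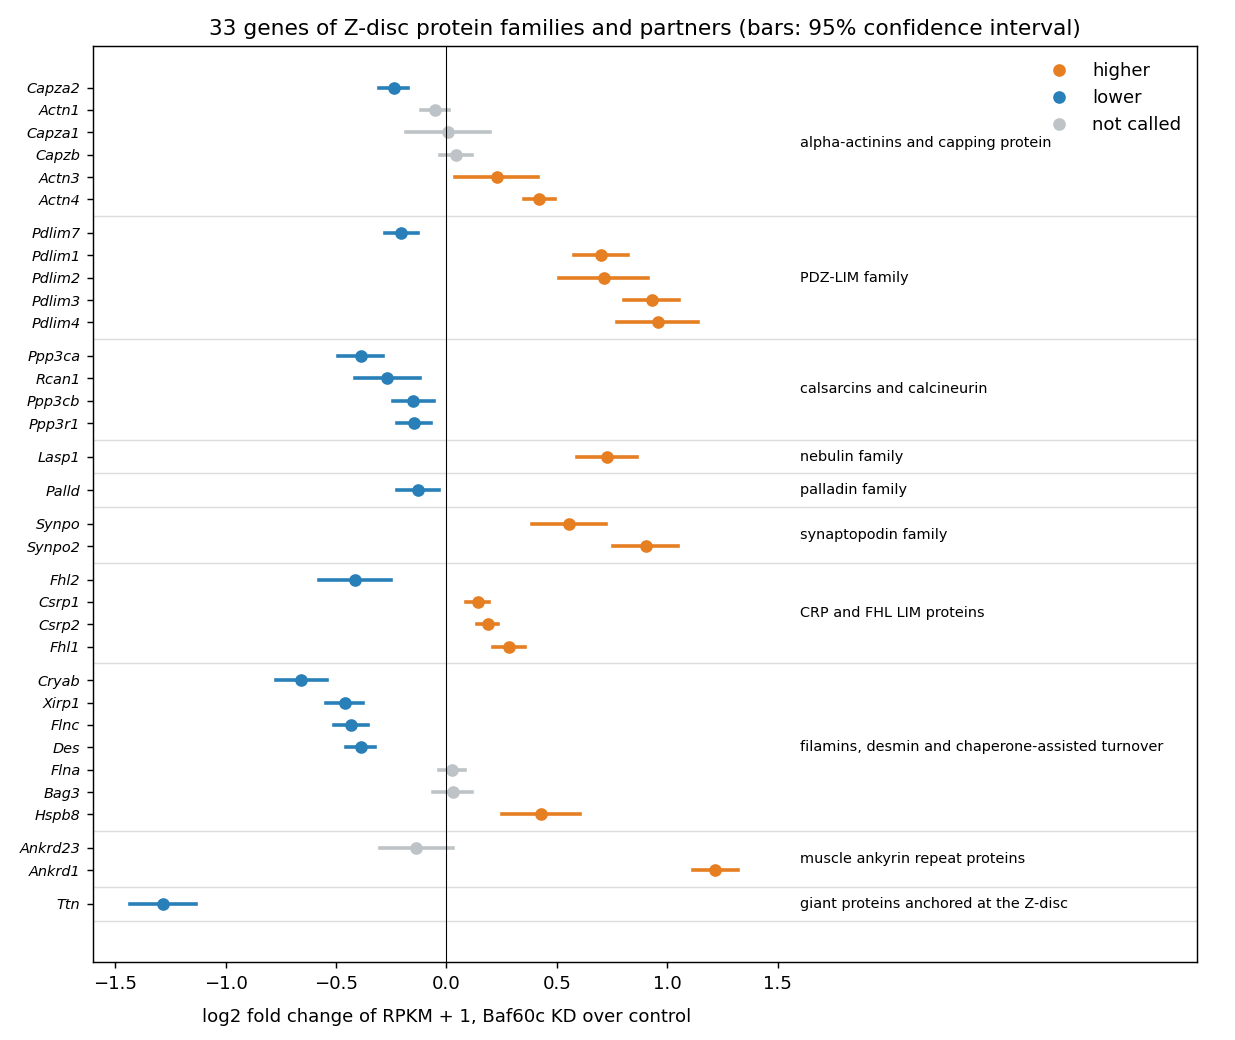
Log2 fold change (RPKM + 1, Baf60c KD over control) of 33 genes from Z-disc protein families and partners, as points with 95% confidence intervals, grouped by family. Orange marks 14 genes called higher, blue 13 called lower and grey 6 not called. PDZ-LIM and synaptopodin genes lie mostly to the right of 0, titin and the calcineurin genes to the left.

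Among 6 genes of other alpha-actinins and of capping protein 2 were higher and 1 lower. Actn4, a non-muscle alpha-actinin of stress fibres and cell edges, had 93.2 and 90.3 RPKM in Baf60c KD, against 67.3 and 69.4 RPKM in control, with a log2 fold change of 0.42 (SE 0.031). Its exons share 6.73% of their bases with Capn12 on the opposite strand. Actn1, the other non-muscle form, had 94.3 and 94.8 RPKM in Baf60c KD and 99.4 and 96.8 RPKM in control and was not called (−0.05, limma adjusted p = 0.13), except with median-ratio factors (−0.13, limma adjusted p = 0.0027). Actn3, the alpha-actinin of fast skeletal muscle, was at 1.28 and 1.11 RPKM in Baf60c KD and at 0.962 and 0.791 RPKM in control (0.23, limma adjusted p = 0.044), a call that 4 of the 13 alternatives lost, median-ratio factors among them. Capza2, an alpha subunit of the capping protein that closes the ends of actin filaments at the Z-disc, was lower by a small amount (−0.24).

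The PDZ-LIM family other than Ldb3 and Pdlim5 was higher at 4 of 5 genes. Pdlim3, which also binds alpha-actinin at the Z-disc, had 14.5 and 13.8 RPKM in Baf60c KD, against 6.64 and 7.31 RPKM in control (log2 fold change 0.93, SE 0.055). Pdlim1 (0.70), Pdlim4 (0.96) and Pdlim2 (0.71) rose as well. Pdlim7, which has 3 LIM domains like the long forms of Ldb3 and Pdlim5, fell by 0.20 on the log2 scale, with 34.2 and 34.6 RPKM in Baf60c KD and 39.5 and 40.2 RPKM in control.

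The synaptopodin relatives Synpo2 and Synpo and the nebulin relative Lasp1 were higher, while Synpo2l and Nebl were lower. Synpo2, myopodin, had 7.44 and 7.42 RPKM in Baf60c KD, against 3.28 and 3.76 RPKM in control (log2 fold change 0.90, SE 0.065), and Synpo, synaptopodin itself, rose by 0.56. Lasp1, a LIM and SH3 protein of focal adhesions with nebulin repeats, had 15.1 and 13.8 RPKM in Baf60c KD, against 7.94 and 8.76 RPKM in control (0.73, SE 0.060). The other members of the nebulin family, Neb and Nrap, were below the filter.

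Among 4 LIM proteins of the CRP and FHL families 3 were higher and 1 lower. Csrp2, a CRP of smooth muscle and early heart, had 404 and 405 RPKM in Baf60c KD, against 359 and 351 RPKM in control (log2 fold change 0.19, SE 0.021). Csrp1 rose by 0.14 and Fhl1 by 0.28, while Fhl2, a LIM protein of the heart that binds titin, fell by 0.41 on the log2 scale.

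Titin and most tested genes of the desmin and calcineurin lists were lower, while Ankrd1, a titin-binding protein described below, was higher. Titin, Ttn, had 6.37 and 6.35 RPKM in Baf60c KD, against 15.7 and 18.3 RPKM in control, 2.67-fold lower (log2 fold change −1.29, SE 0.066). Of 7 tested genes of filamins, desmin and their turnover 4 were lower and 1 higher. Desmin, Des, had 72.0 and 73.1 RPKM in Baf60c KD, against 93.9 and 96.5 RPKM in control (−0.39, SE 0.029), and muscle filamin, Flnc, 34.2 and 33.6 RPKM in Baf60c KD, against 46.6 and 45.5 RPKM in control (−0.43, SE 0.034). Cryab (−0.66), a small heat shock protein bound to desmin, and Xirp1 (−0.46), an actin-binding Xin protein, were lower too, whereas the chaperone Hspb8 (0.43) was higher. Of the exon bases of Des, 5.86% also belong to a gene of the opposite strand.

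All 4 tested genes of the calsarcin and calcineurin list were lower by small amounts, Ppp3ca (−0.39), Rcan1 (−0.27), Ppp3cb (−0.15) and Ppp3r1 (−0.15), subunits of calcineurin and its regulator. The call of Ppp3cb was lost without control replicate 2 (limma adjusted p = 0.052). Wdr92, on the same strand, overlaps 14.3% of the exon bases of Ppp3r1. Palladin, Palld, was slightly lower (−0.13), a call that 5 of the 13 alternatives lost. Ankrd1, the ankyrin repeat protein that binds titin, was the 1 gene of its group that rose, with 56.2 and 57.7 RPKM in Baf60c KD, against 25.1 and 22.9 RPKM in control (1.22, SE 0.045).

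The ratio of a Z-disc gene to a related gene within a library does not depend on library scaling, and it was lower in both Baf60c KD libraries for all 6 pairs compared. The relatives had risen, were not called or had fallen by less than the Z-disc gene. The direction of the ratios therefore follows from the changes given above and is no separate result. Actn2 to Actn1 was 0.369 and 0.367 in Baf60c KD, against 1.03 and 1.01 in control, and Actn2 to Actn4 was 0.373 and 0.385 in Baf60c KD, against 1.52 and 1.40 in control. With 1 transcript per gene, Actn2 and Actn1 were at about equal levels per length in control, and Actn1 was the higher of both in Baf60c KD. From summed transcripts Actn2 to Actn1 was 0.185 and 0.185 in Baf60c KD, against 0.517 and 0.506 in control. Transcripts of a gene share reads, so such sums count reads more than once and do not show which gene is higher. Nebl to Lasp1 was 1.23 and 1.27 in Baf60c KD, against 5.08 and 4.65 in control, 3.90-fold lower. Synpo2l to Synpo2 was 0.583 and 0.58 in Baf60c KD, against 2.06 and 1.78 in control, 3.30-fold lower. From summed transcripts, in which shared reads count more than once, it was 1.54 and 1.52 in Baf60c KD, against 5.43 and 4.70 in control. Ldb3 to Pdlim7 was 1.32 and 1.30 in Baf60c KD, against 1.99 and 1.91 in control, 1.48-fold lower. Csrp3 to Csrp2 was 0.0664 and 0.0673 in Baf60c KD, against 0.102 and 0.106 in control, 1.55-fold lower. No ratio overlapped between groups, yet with 2 libraries against 2 the exact permutation test, two-sided, cannot go below p = 0.333, which each pair had (0.333 also after Benjamini-Hochberg adjustment over the 6 pairs).

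**Figure D4:**
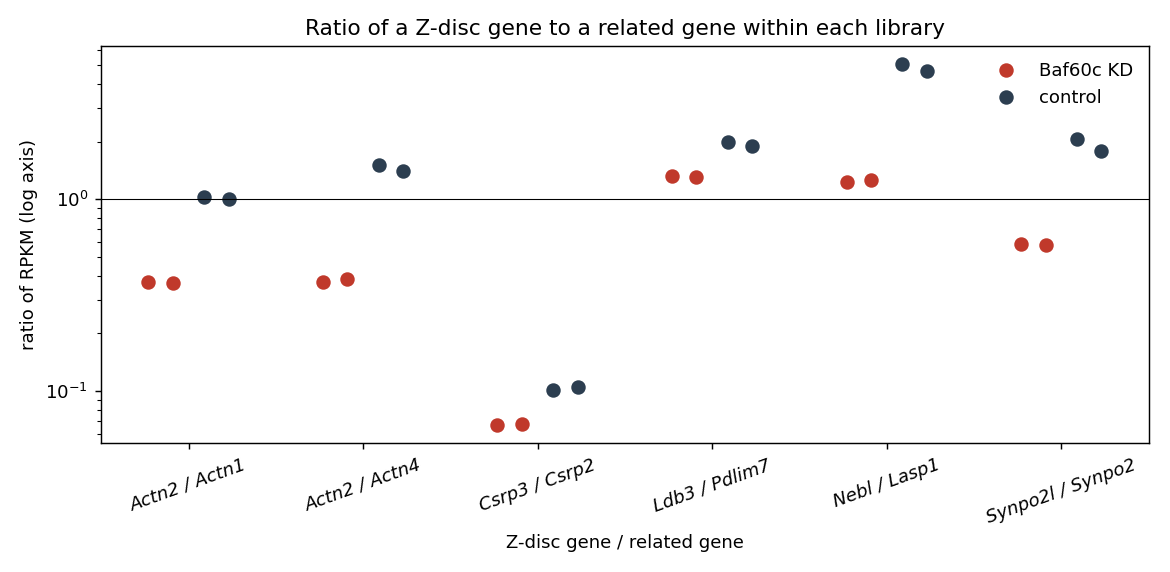
Ratio of RPKM (log axis) between a Z-disc gene and a related gene in each library, with 2 Baf60c KD libraries in red on the left and 2 control libraries in dark blue on the right of each pair. The line marks a ratio of 1. Baf60c KD points lie below control points in all 6 pairs. With the 1 transcript per gene drawn here, those of Actn2 and Synpo2l lie below 1 where control points lie above it.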

How the data were processed

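RNA-seq of 4 libraries of day 5 Nkx2-5-GFP+ CPCs was analysed, 2 Baf60c KD and 2 control, grouped by the sample labels. Per the study's methods, stranded mRNA libraries were sequenced on a NextSeq500, mapped to mm9 with STAR and counted over exons of RefSeq transcripts with HOMER, both strands accepted. Tool versions and the treatment of reads with several matches are not given in the sources used here. The values deposited by the authors are RPKM, computed by them with edgeR. The same table holds the authors' DESeq2 output (log2 fold change, p-value, and mean normalised signal), which was not used, and transcript lengths. Of its 35707 rows the first 31507 were used, since the last 4200 had been normalised separately and hold no Z-disc gene of the 10. RPKM times length times the library total gave whole reads for 100% of values (tolerance 0.001 reads).

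Per gene symbol the transcript with the highest mean of RPKM times length was kept, and these held 12623031 to 17649363 reads per library. Reads differed by more than counting noise between replicates (chi-square over degrees of freedom 1.16 in Baf60c KD, 1.49 in control), so no library was a copy. log2(RPKM + 1) was fitted with limma 3.58.1 (R 4.3.3), with trend and robust variance prior, for genes with a mean of at least 0.5 RPKM. P-values were adjusted by Benjamini-Hochberg over all genes and called at 0.05. Fold changes on this scale understate changes of low genes. The fit was also run on simulated data in which far fewer genes changed than were called here. No result rests on that run. Ratios within libraries were tested by exact permutation. Alternatives were a pseudocount of 0.1, no filter, a minimum of 50 mean reads, median-ratio factors, voom on recovered reads, a plain variance prior, the transcript with the highest mean RPKM, all transcripts, a replicate block, each library left out, and ratios of summed transcripts. GENCODE M1 and the mm9 genome gave coordinates and exon overlaps. All 10 genes were named, and of the wider list up to 3 per group with the smallest adjusted p plus the relatives in ratios. Pdlim2, Ppp3cb, Fhl2, Cryab and Hspb8 fell outside that rule and were added with their values known, and 2 genes first put in the wider list are not reported here. The 10 genes and all lists were chosen with earlier results of these data known, so no test over a list was made.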

Additional observations from a re-analysis of the deposited data

How the results depend on the processing

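All 8 Z-disc genes tested were called lower, and none higher, under each alternative that could test them. Over all genes, using all transcripts gave 6745 higher and 3572 lower calls among 19001 transcripts tested, more because more features were tested, and leaving out 1 library at a time gave 3493 to 4011 higher and 1781 to 1997 lower calls. The median of the wider list of 40 genes, 0.03 on the log2 scale, lay near 0 and turned to −0.0031 without the filter on low values and to −0.046 with median-ratio factors, and ranged between −0.0093 and 0.049 with 1 library left out (below 0 without Baf60c KD replicate 1). Without the filter, 9 Z-disc genes were tested and called lower, the added one being Myot. Ratios of summed transcripts, in which shared reads count more than once, kept their direction in all 6 pairs, though not always their side of 1.

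Replicate numbers are shared by both groups in the labels, but nothing says that they mark a shared batch, and the deviations of same-numbered libraries correlated with r = 0.0243 across genes, which are not independent replicates. With the replicate number as a block, 4093 genes were higher and 2073 lower, and all 8 Z-disc genes stayed lower. With 2 libraries a group, the spread between replicates is poorly known, and the depth limits Myoz2, Myot and Tcap.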

Other observations

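Of the wider list, 7 genes lay under the filter on low values. Myoz1, a calsarcin of skeletal muscle, had 0 and 0.230 RPKM in Baf60c KD, against 0.770 and 0.634 RPKM in control. Nrap, a nebulin-related protein of early myofibrils, had no read in Baf60c KD and 0.0161 and 0.0423 RPKM in control. Neb, nebulin of skeletal muscle, was at 0.0414 and 0.0560 RPKM in Baf60c KD and at 0.0540 and 0.0507 RPKM in control. Myoz3, Mypn and Xirp2 were below 0.02 RPKM in every library, and Ankrd2 was at 0.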
